A study of Mus musculus with 6 samples.

Results

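Lipid genes used in the sebaceous gland, 10 in all, were followed: the stearoyl-CoA desaturases Scd1, Scd2 and Scd3, the elongase Elovl3, the melanocortin receptor Mc5r, the fatty acid desaturases Fads1, Fads2 and Fads6, the fatty acyl-CoA reductase Far2 and the acyltransferase Mogat2. Every probe set to which the platform annotation gives exactly 1 symbol, that symbol being one of these, was kept. This gave 19 probe sets for the 10 genes, out of 45101 probe sets on the array and 18193 genes with a symbol of their own. The genes were chosen from the same comparison that is described here, in which Scd3 and Elovl3 were already known to be lower in caNrf2 skin, so the values below describe the members and their tests are not independent evidence.

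The study measured RNA from whole back skin of newborn female mice, all taken from 1 litter of mixed FVB/N and C57BL/6 background at postnatal day 2.5, with 1 Affymetrix array per animal. The 3 caNrf2 mice (labelled K5cre-caNrf2, tg/tg) combine a Cre recombinase under the keratin 5 promoter with a transgene for caNrf2, an always active variant of Nrf2, a transcription factor of the stress response. The 3 control mice (labelled K5cre-wt, tg/wt) are described only by that label, read here as Cre without caNrf2. The keratin 5 promoter is active in basal keratinocytes of the epidermis and its appendages, which include the outer cells of the sebaceous gland, whereas the RNA came from all cells of the skin. In older mice of this kind enlarged sebaceous glands have been described, and the arrays allow the question which sebaceous lipid transcripts differ soon after birth.

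Sebaceous glands fill their cells with neutral lipids, chiefly triglycerides, wax esters and sterol esters, and release them as sebum when the cells disintegrate. Stearoyl-CoA desaturases place a double bond in saturated fatty acids, elongases lengthen the chains, reductases turn them into the alcohols of waxes and acyltransferases join the parts. Mice without Scd1 have stunted sebaceous glands, mice without Mc5r make too little sebum, and Elovl3 is a known gene of sebocytes and hair follicles that is also induced in brown fat by cold. Several members are made by other cells too: Scd1 is abundant in fat, Scd2 is the main desaturase of newborn skin and brain, and Fads1 and Fads2 act in most tissues on polyunsaturated fatty acids.

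The sequence before the start of Scd3 is shown because Scd3 is the member with the clearest difference, and that of Fads2 because its probe sets lay on the other side of 0. Promoters from RefSeq (build GRCm38.p6, 250 bases before to 50 after the start) were matched for 4 of the 10 members, Scd3, Fads2, Fads6 and Far2. Windows on 1 chromosome were left out of this match, so a member there could not be found. Capitals mark matches to any of 5 short motifs, searched on both strands. The Scd3 window is chr19:44203038-44203337 on the plus strand and the Fads2 window chr19:10101454-10101753 on the minus strand, each written 5′ to 3′ along its gene.
Scd3: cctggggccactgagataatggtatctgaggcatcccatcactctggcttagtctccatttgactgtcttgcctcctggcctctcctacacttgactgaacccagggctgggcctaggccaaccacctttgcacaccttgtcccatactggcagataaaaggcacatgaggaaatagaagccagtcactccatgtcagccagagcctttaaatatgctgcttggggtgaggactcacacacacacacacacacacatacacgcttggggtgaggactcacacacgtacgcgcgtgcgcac
Fads2: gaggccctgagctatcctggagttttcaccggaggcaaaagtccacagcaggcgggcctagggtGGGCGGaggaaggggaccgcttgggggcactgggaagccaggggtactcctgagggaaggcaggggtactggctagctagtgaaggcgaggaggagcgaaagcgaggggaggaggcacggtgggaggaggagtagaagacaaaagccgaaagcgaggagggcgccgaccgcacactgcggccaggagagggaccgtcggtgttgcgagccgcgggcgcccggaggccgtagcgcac
The motifs were the core of the antioxidant response element that Nrf2 binds (TGACNNNGC, found in 12.4% of 32851 promoter windows of this length), a sterol response element (TCACNCCAC, 1.2%), a nuclear receptor binding motif (AGGTCA, 16.3%), the NF-Y box (CCAAT, 37.4%) and the Sp1 box (GGGCGG, 35.7%). None of these letter strings occurred in the Scd3 window, and the Fads2 window held a single Sp1 box at -186 to -181. Far2 held 2 Sp1 boxes. Fads6 held 2 nuclear receptor motifs and 1 antioxidant response element core (TGACTCCGC, at -35 to -27), which overlaps an Sp1 box. These are matches of letters and not sites shown to be bound.

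Array medians lay between 80.9 and 82.12 intensity units, and arrays correlated over all probe sets at 0.9961 or more. As a check of the labels, 11 of 14 probe sets of Nfe2l2 and 6 targets of Nrf2 were called higher, the smallest p being that of the glutathione transferase Gsta3, which rose by 5.04 ± 0.08 on the log2 scale (SE; limma adjusted p = 1.32e-10). The others called were of Gclc, Gclm, Gpx2, Srxn1 and Nqo1, with a second of Gsta3. Nqo1, a target of Nrf2, rose from a log2 intensity of 5.92 ± 0.27 in controls to 9.53 ± 0.15 with caNrf2 (SD, n = 3; limma adjusted p = 3.38e-07). Nfe2l2, which encodes Nrf2, was higher on all caNrf2 arrays, by 0.41 ± 0.08 (SE), without passing the threshold (limma adjusted p = 0.0812). Probes of Y-linked genes, which are silent in females, read between 2.62 and 3.95, and the median probe set 6.34. Over all 45037 probe sets tested, 102 (0.226%) were called higher and 6 (0.0133%) called lower with caNrf2, at an adjusted p below 0.05 from limma. In 7.28% of probe sets every caNrf2 array lay below every control array, and in 6.90% above.

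Of the 19 member probe sets 1 was called lower, a probe set of Scd3, and 0 were called higher (6 of the 19 had an unadjusted limma p under 0.05, as did 8.85% of all probe sets, and nothing is read from this since the contrast chose the members). On 3 of the 19 every caNrf2 array lay below every control array, both of Scd3 and that of Elovl3, and on 1, of Fads2, every caNrf2 array lay above. Since the members were chosen from this contrast, these shares stand beside the 7.28% and 6.90% of all probe sets as a description. Differences were split evenly around 0, with 9 probe sets lower and 10 higher and a median of 0.01, against -0.0043 over all probe sets. Signals of different probe sets depend on their probes and are not ranked against each other. In whole skin, fewer cells of a type and less RNA per cell cannot be told apart.

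**Figure D1:**
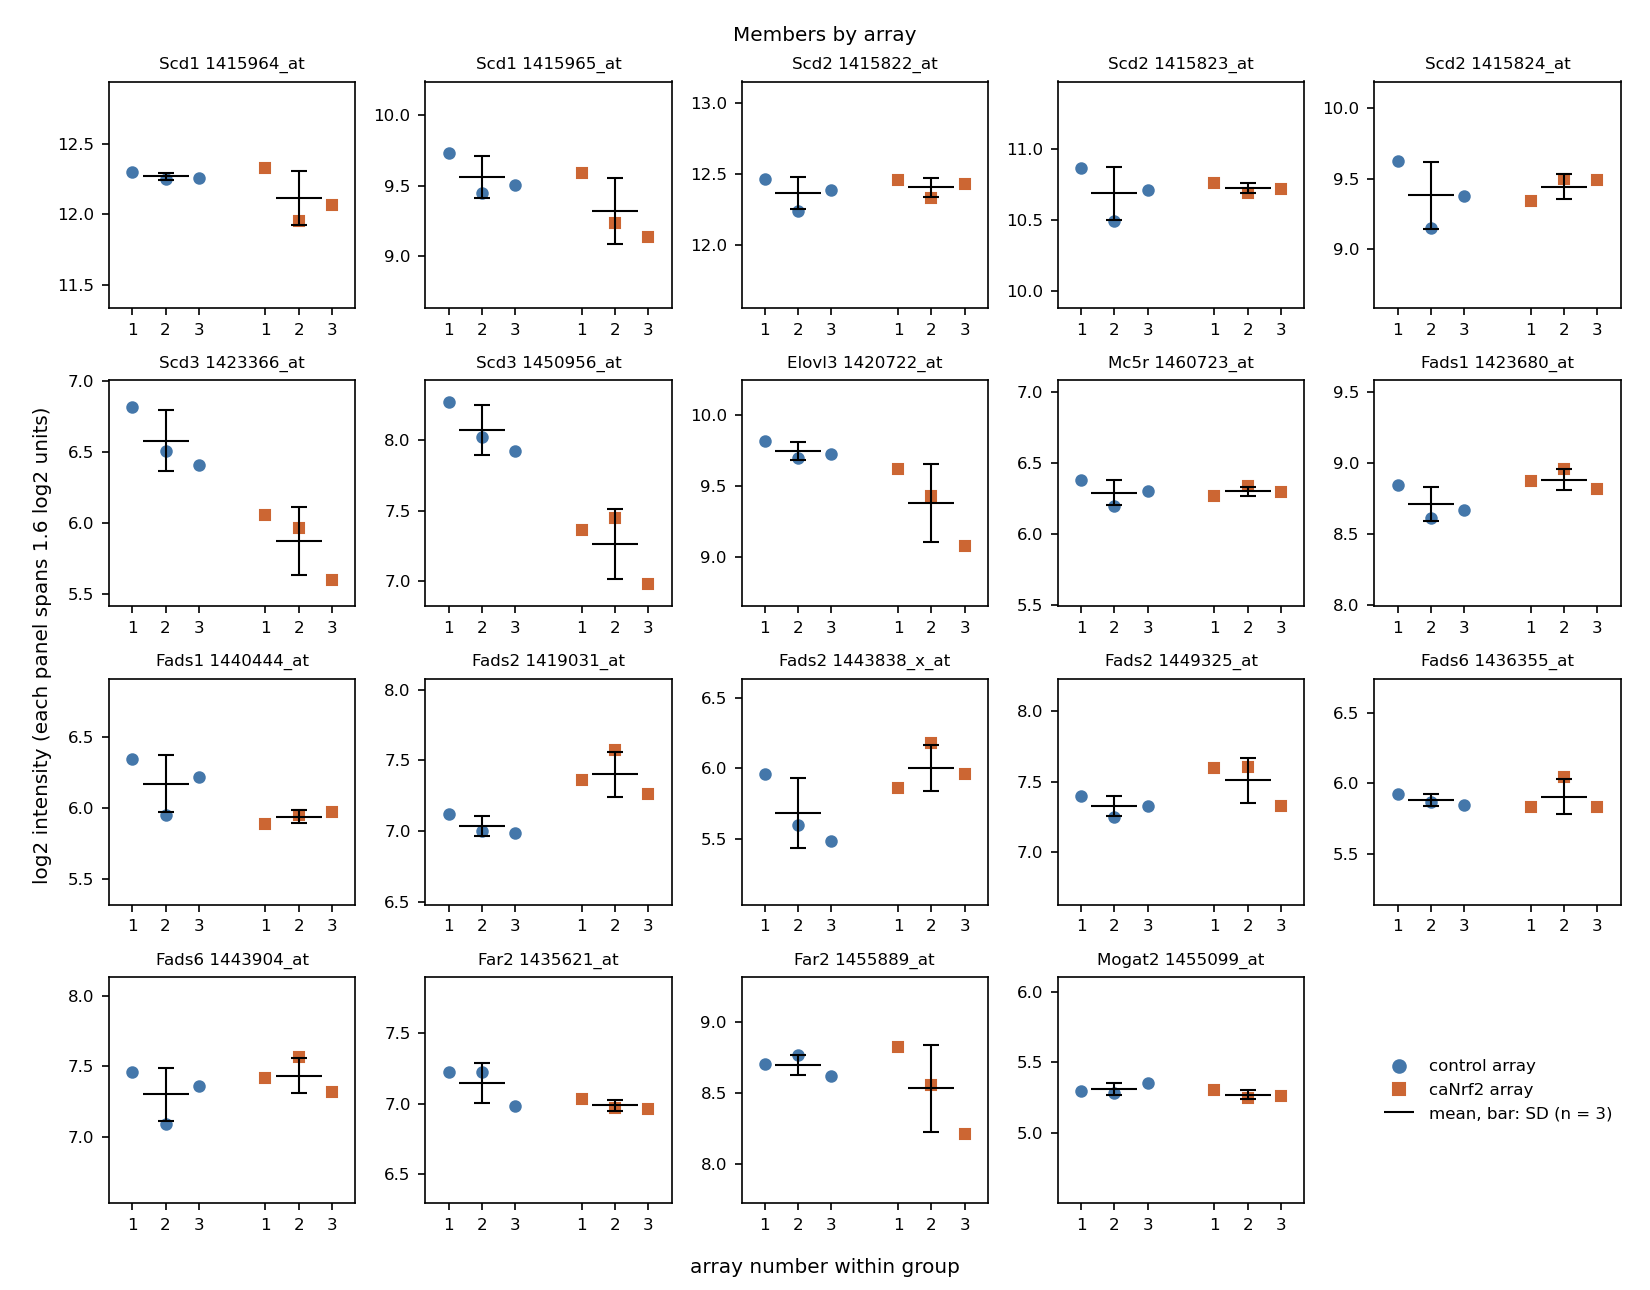
Log2 intensity of the 19 member probe sets on each array, with control arrays as blue circles and caNrf2 arrays as orange squares; black bars give the mean and SD of 3 arrays, and each panel spans the same log2 range. Both Scd3 panels and the Elovl3 panel show 3 orange points below all blue points, the lowest being caNrf2 array 3.

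The stearoyl-CoA desaturases were led by Scd3, an enzyme of the skin that prefers palmitoyl-CoA. Its brighter probe set read 8.27, 8.02 and 7.92 on control arrays 1 to 3 and 7.36, 7.45 and 6.98 on caNrf2 arrays 1 to 3 (log2 intensity). All caNrf2 values were lower than all control values, and the gap between the groups was wider than the range within controls. Scd3 on this probe set fell by 0.81 ± 0.13 on the log2 scale (SE), which leaves 0.57 of the control level (95% interval 0.47 to 0.70; limma adjusted p = 0.0331), the third lowest difference among the 45037 probe sets. The dimmer Scd3 probe set read 6.82, 6.51 and 6.41 in controls and 6.05, 5.97 and 5.60 in caNrf2 skin. It separated the groups in the same direction. Its log2 difference was -0.71 ± 0.13, 0.61 of the control level (95% interval 0.50 to 0.75), and missed the threshold (limma adjusted p = 0.0861). Both probe sets lay above the level of the silent Y-linked probes on every array. The call of the brighter set was lost when any 1 of the 6 arrays was left out, with limma adjusted p from 0.0532 to 0.170, while the log2 difference stayed between -0.90 and -0.66 without single arrays.

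Scd1, the main desaturase of mature sebaceous glands, did not separate the groups. Its brighter probe set read 12.30, 12.25 and 12.26 in controls and 12.33, 11.95 and 12.06 in caNrf2 skin. CaNrf2 array 1 was above every control and the other two were below, so the groups overlapped. The log2 difference was -0.16 ± 0.10 (95% interval -0.37 to 0.06; limma adjusted p = 0.674). The dimmer probe set read 9.73, 9.45 and 9.51 in controls and 9.59, 9.23 and 9.14 in caNrf2 skin, with array 1 inside the control range and the others below it, and differed by -0.24 ± 0.12 (95% interval -0.51 to 0.02; limma adjusted p = 0.595). Single arrays moved both Scd1 values. Without caNrf2 array 2 the brighter set differed by -0.074 and without caNrf2 array 1 by -0.26. The dimmer set ran from -0.38 without caNrf2 array 1 to -0.15 without caNrf2 array 3.

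Scd2, the desaturase of early skin, had the smallest mean differences of the 3 stearoyl-CoA desaturases. Its 3 probe sets, from bright to dim, differed by 0.04 ± 0.08, 0.04 ± 0.10 and 0.06 ± 0.11 on the log2 scale, with overlap of the groups on each. The widest 95% interval, that of the dimmest, ran from -0.19 to 0.31. On all 3 probe sets control array 1 gave the highest and control array 2 the lowest of the 6 values, so the control range enclosed every caNrf2 array. Whether the Scd probe sets also bind transcripts of their close relatives was not analysed here, since the probe sequences were not used.

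**Figure D2:**
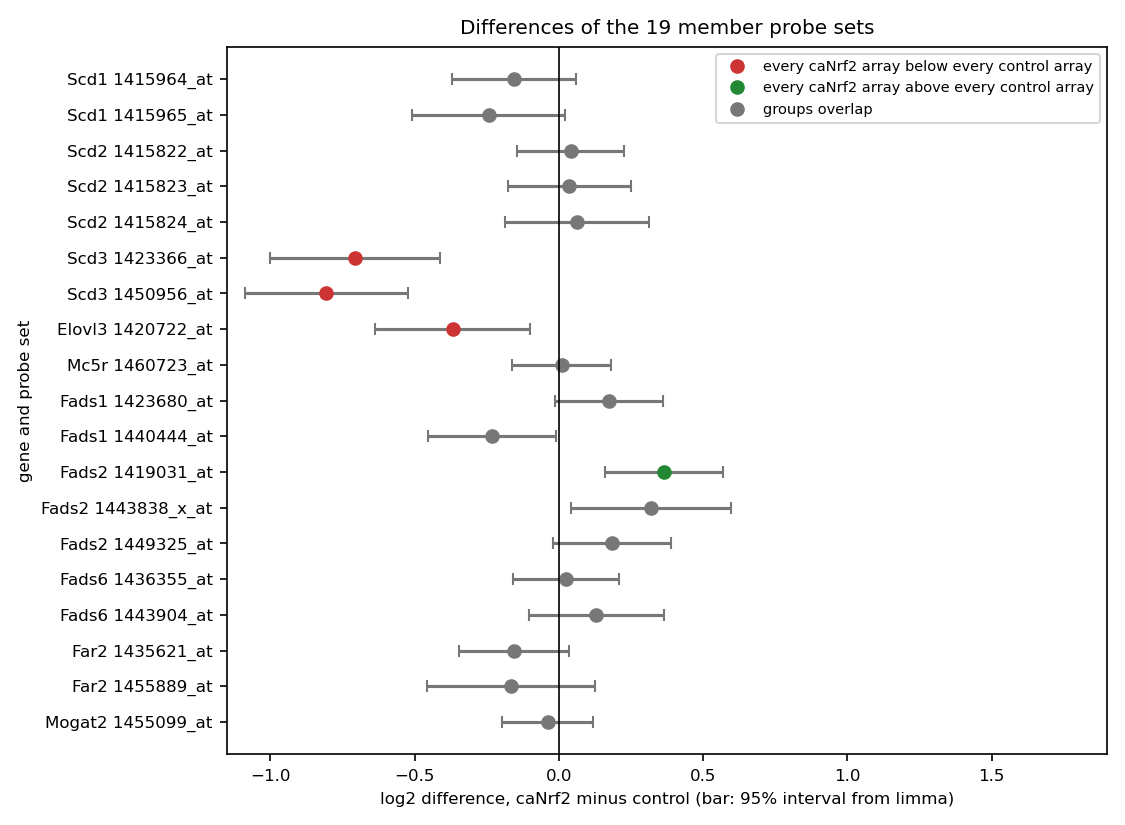
Log2 difference, caNrf2 minus control, of each member probe set with its 95% interval from limma; red marks probe sets on which every caNrf2 array lay below every control array, green the reverse and grey an overlap of the groups. The 2 Scd3 probe sets, at -0.81 and -0.71, lie farthest from 0.

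Elovl3, which extends saturated and monounsaturated fatty acids to very long chains, was lower on every caNrf2 array without being called. Its only probe set read 9.82, 9.70 and 9.72 in controls and 9.62, 9.43 and 9.08 in caNrf2 skin. The controls lay close together and the caNrf2 arrays spread out, with array 1 just below the controls and array 3 far below. The means were 9.75 ± 0.06 and 9.38 ± 0.28 (SD, n = 3), and the log2 difference was -0.37 ± 0.12, 0.78 of the control level (95% interval 0.64 to 0.93; limma adjusted p = 0.424). Without caNrf2 array 3 the difference was -0.22, and without caNrf2 array 1 it was -0.49. Hair follicle markers varied over the caNrf2 arrays too: relative to the control mean, the median of 15 such genes was 0.17, 0.02 and -0.36 on arrays 1 to 3, against -0.12, -0.31 and -0.67 for Elovl3. Their part in the Elovl3 difference was not tested.

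Mc5r, the receptor through which melanocortins stimulate sebum, did not separate the groups. It read 6.38, 6.20 and 6.30 in controls and 6.27, 6.34 and 6.30 in caNrf2 skin, all near the median probe set. The caNrf2 values lay inside the control range. The log2 difference was 0.01 ± 0.08, with a 95% interval of -0.16 to 0.18, or 0.89 to 1.13 times the control level.

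Among the desaturases of polyunsaturated fatty acids, no probe set was called. Fads2, which starts the conversion of linoleic and linolenic acid, had 3 probe sets, and the middle one in brightness read 7.12, 7.002 and 6.98 in controls and 7.36, 7.57 and 7.26 in caNrf2 skin. Every caNrf2 array was above every control here. The log2 difference was 0.37 ± 0.09, 1.29 times the control level (95% interval 1.12 to 1.48; limma adjusted p = 0.284). The brightest read 7.40, 7.25 and 7.33 against 7.60, 7.61 and 7.33, with caNrf2 arrays 1 and 2 above and array 3 within the controls, and differed by 0.18 ± 0.09. The dimmest, of a kind that can also bind related transcripts, differed by 0.32 ± 0.13 with overlapping groups. All 3 Fads2 probe sets were thus higher on average and none was called.

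Fads1, which acts later on the same fatty acids, gave probe sets of opposite sign. The brighter read 8.84, 8.61 and 8.67 in controls and 8.87, 8.96 and 8.82 in caNrf2 skin, a log2 difference of 0.17 ± 0.09. The dimmer read 6.35, 5.95 and 6.22 against 5.89, 5.95 and 5.98, a difference of -0.23 ± 0.10. It was -0.15 without control array 1 and -0.34 without control array 2. The groups overlapped on both, and no direction can be given for the gene. Fads6, a relative of these desaturases, differed by 0.13 ± 0.11 on its brighter probe set and by 0.03 ± 0.08 on its dimmer one, with overlapping groups on both. The brighter value was 0.026 without control array 2, 0.064 without caNrf2 array 2 and 0.21 without control array 1.

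Neither enzyme that builds waxes or glycerides was called. Far2, which reduces fatty acyl-CoA to the alcohols of wax esters, read 8.71, 8.76 and 8.62 in controls and 8.83, 8.56 and 8.21 in caNrf2 skin on its brighter probe set. CaNrf2 array 1 was the highest and array 3 the lowest of all 6. The log2 difference was -0.17 ± 0.13 (95% interval -0.46 to 0.12), with -0.0056 without caNrf2 array 3 and -0.31 without caNrf2 array 1. The dimmer Far2 probe set differed by -0.16 ± 0.09, by -0.24 without control array 3 and by -0.12 without control array 1. Mogat2, which adds a fatty acid to monoacylglycerol and is best known from the gut, gave a low signal of 5.31 ± 0.04 in control and 5.27 ± 0.03 in caNrf2 skin, a difference of -0.04 ± 0.07.

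CaNrf2 array 3 gave the lowest of the 6 values on 6 of the 19 member probe sets (31.6%; 18.5% over all probe sets), those of Scd3, Elovl3, 1 of Scd1 and both of Far2. The caNrf2 SD exceeded the control SD on 9 of 19 (47.4%, and 63.7% over all probe sets). Both shares only describe members that were chosen from this contrast. Both Scd3 and both Far2 probe sets are among the 6.

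**Figure D3:**
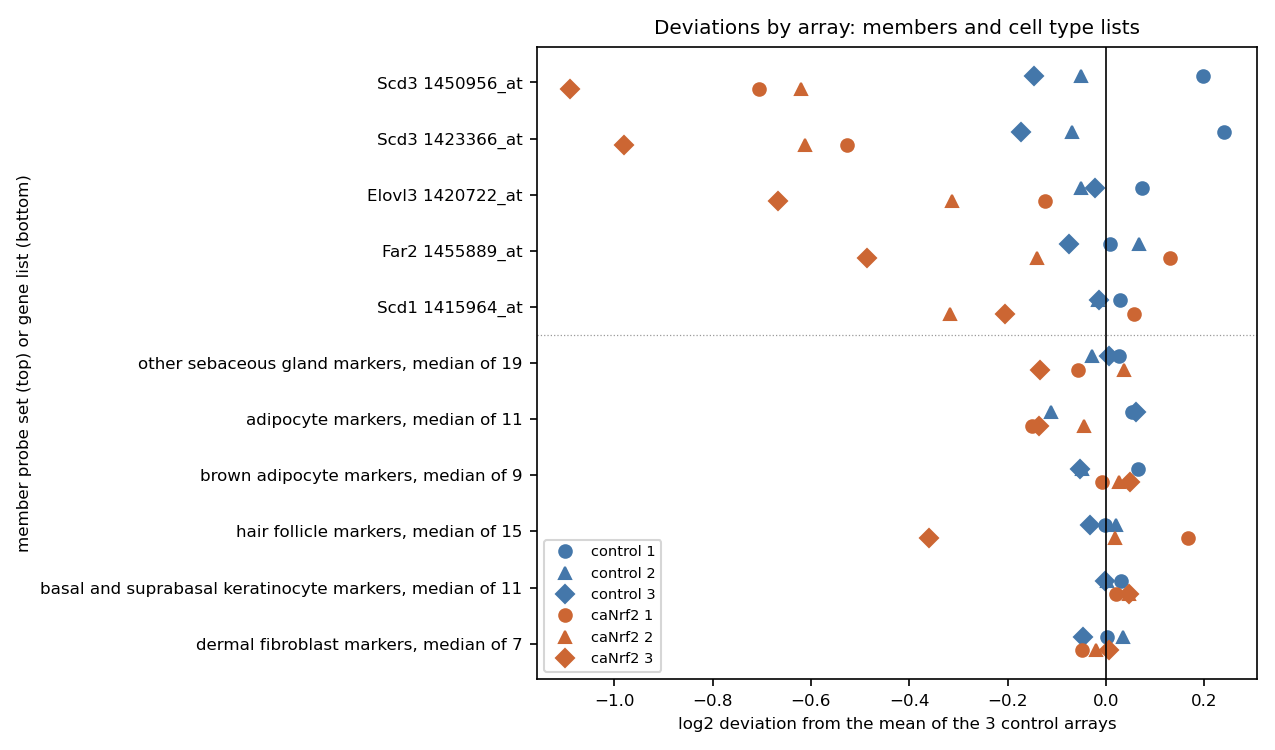
Log2 deviation of each array from the mean of the 3 control arrays, for 5 picked member probe sets (top) and 6 cell type lists (bottom). Lists are shown by the median over genes, each with its brightest probe set. Blue symbols are control and orange symbols caNrf2 arrays. All 5 picked probe sets have a mean difference below 0, whereas 10 of the 19 member probe sets lie above 0. Scd3 and Elovl3 lie left of 0 on every caNrf2 array and farthest on array 3, where hair follicle markers were also low at -0.36. Sebaceous markers were at -0.06, 0.04 and -0.14 on caNrf2 arrays 1 to 3, so they too were lowest on array 3.

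Other markers of the sebaceous gland were measured to check the name of the group. Of 24 listed markers 19 were measured, none at the level of the silent Y-linked probes, and 4 of the 19 also stand in another of the lists used here. Krt79, picked as a landmark like Pparg, is a keratin of the sebaceous duct and upper follicle and read 12.92 ± 0.03 in control and 12.84 ± 0.09 with caNrf2 (log2 intensity, SD, n = 3), while Pparg, a nuclear receptor needed for sebocytes and adipocytes, read 8.57 ± 0.08 and 8.51 ± 0.08. On the 31 probe sets of the 19 genes none was called, and the median difference was -0.05. Of these, 21 were below 0, against 23257 of 45037 over all probe sets. The summed intensity of the 19 genes ranged from 25774 to 26639 on control and from 24552 to 27601 on caNrf2 arrays. Every caNrf2 array lay below every control on 3 of these probe sets, named here after their values were seen: Plin2, a coat protein of lipid droplets, at -0.30 ± 0.10, the apolipoprotein Apoc1 at -0.20 ± 0.07, and a dim probe set of Lrig1, a stem cell marker of the upper follicle, at -0.34 ± 0.10, which had the smallest p of the list (limma adjusted p = 0.374). The other two Lrig1 probe sets differed by -0.05 and 0.10. On 2 further probe sets of the list, named on the same ground, every caNrf2 array lay above every control: Mgst1, a microsomal glutathione transferase, at 0.19 ± 0.09, and the transcription factor Myc at 0.17 ± 0.08. These 3 and 2 of 31 probe sets stand beside 7.28% and 6.90% of all probe sets.

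Related enzymes outside the members changed rarely. Of 12 measured desaturases, elongases and their partners (30 probe sets, median difference 0.02) none was called. The smallest p was that of Elovl7, an elongase of saturated fatty acids, which read 9.10, 9.22 and 9.13 in controls and 9.52, 9.47 and 9.52 in caNrf2 skin on 1 of its 6 probe sets, a difference of 0.35 ± 0.07 (limma adjusted p = 0.150). Among 17 genes of fatty acid synthesis and its control (34 probe sets, median 0.01) only malic enzyme Me1, a source of NADPH and a known Nrf2 target, was called. Both Me1 probe sets rose, by 0.63 ± 0.07 and 0.69 ± 0.08 (limma adjusted p = 0.00308 and 0.00489). Fasn, fatty acid synthase, differed by -0.15 ± 0.10 and Srebf1, its sterol-responsive activator, by -0.12 ± 0.09, and these 2 were picked as landmarks of the pathway. Of 15 genes of wax, triglyceride and sterol ester synthesis (35 probe sets, median 0.03) none was called, and the smallest p belonged to Mogat1, a relative of Mogat2, at -0.22 ± 0.09 (limma adjusted p = 0.524) and at the level of silent probes.

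Receptors of fatty acids and melanocortins, with their partners, gave 1 call. Of 8 measured melanocortin ligands, receptors and accessory proteins (14 probe sets, median -0.07) none was called, and the smallest p was that of Atrn, attractin, at -0.19 ± 0.07 (limma adjusted p = 0.503). Of 18 PPAR genes and genes of fatty acid handling (34 probe sets, median -0.01) 1 probe set was called, that of Ppard, a nuclear receptor for fatty acids that is active in keratinocytes. Ppard on its brighter probe set read 8.38, 8.32 and 8.34 in controls and 8.84, 9.07 and 8.90 in caNrf2 skin. It rose by 0.59 ± 0.08 (limma adjusted p = 0.0120), while its dimmer probe set differed by -0.0036 ± 0.12. The Ppard call was lost without any 1 of the control arrays, with limma adjusted p = 0.0693, 0.0928 and 0.0779.

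Markers of other cells that make or store the same lipids were set beside the members. Adipocyte markers, 11 of 13 measured and none at the silent level, had a median difference of -0.06 and none was called. Of their 22 probe sets 20 were below 0, against 23257 of 45037 over all probe sets. On 4 of the 22 every caNrf2 array lay below every control and on 0 above, beside 7.28% and 6.90% of all probe sets. The summed intensity of the adipocyte markers was 24628 to 27221 on control and 24550 to 25780 on caNrf2 arrays. The smallest p in that list was of Pck1, at -0.55 ± 0.10 (limma adjusted p = 0.0834). This enzyme acts on the path to the glycerol backbone of stored fat. Brown adipocyte markers (9 of 10 measured, 1 of them, Otop1, at the silent level) had a median of -0.06. They summed to 2505 to 2625 on control and 2263 to 2702 on caNrf2 arrays. Of their 19 probe sets 12 were below 0, with every caNrf2 array below every control on 2 and above on 0. The smallest p was that of a Ppargc1a probe set at -0.36 ± 0.08 (limma adjusted p = 0.158). Hair follicle markers (15 of 16 measured, median -0.07) summed to 66401 to 68584 on control and 53754 to 77618 on caNrf2 arrays. The smallest p was that of Hoxc13 at -0.22 ± 0.10 (limma adjusted p = 0.554). Of the 17 hair follicle probe sets 15 were below 0 and 2 above. On 0 of them every caNrf2 array lay below every control, and on 0 above. The part of these cells in the Scd3 difference was not tested.

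Markers of the main compartments of skin had median differences from -0.02 to 0.06, and in no list was a probe set called. Basal and suprabasal keratinocyte genes (11 of 12 measured) had a median of 0.06 with 19 of 20 probe sets above 0, against 21780 of 45037 over all probe sets. On 4 of the 20 every caNrf2 array lay above every control and on 0 below, beside 6.90% and 7.28% of all probe sets. The smallest p of that list was that of Trp63 at 0.23 ± 0.07 (limma adjusted p = 0.412). Dermal fibroblast genes had a median of -0.01 (Pdgfra at -0.21 ± 0.14), skeletal muscle genes of 0.01 (Ckm at 0.14 ± 0.08) and macrophage genes of -0.02 (Lyz2 at -0.11 ± 0.12).

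**Figure D4:**
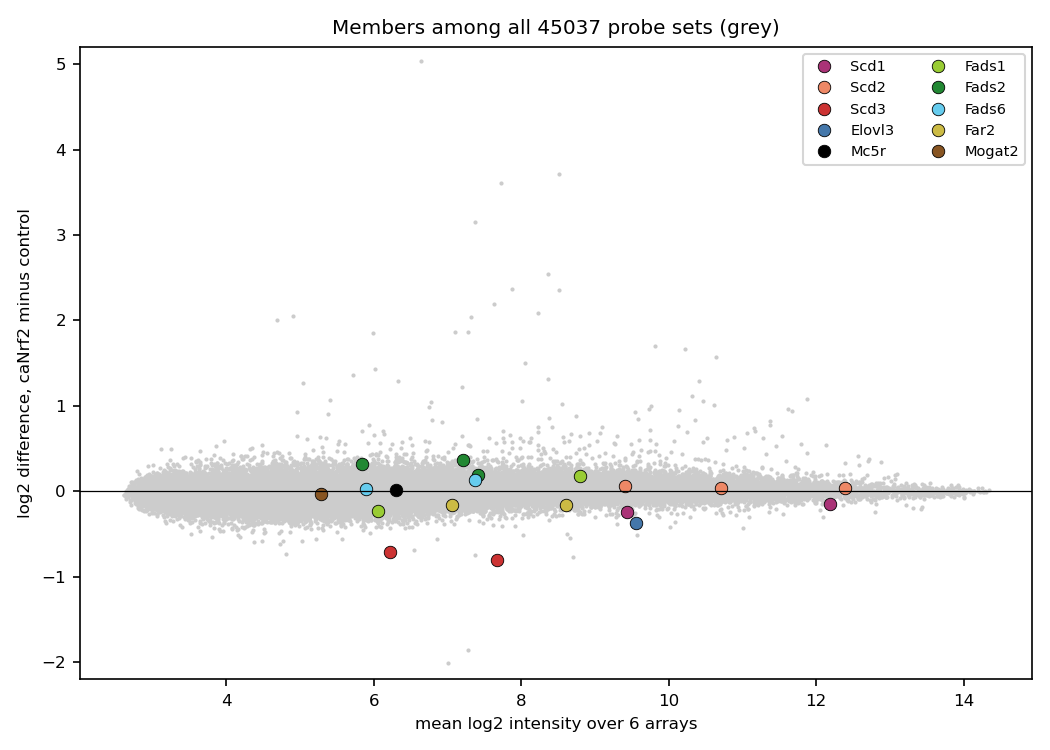
Mean log2 intensity over the 6 arrays (horizontal) against the log2 difference, caNrf2 minus control (vertical), for all 45037 probe sets in grey and the members in colour. The red points of Scd3 lie below nearly all grey points, at -0.81 and -0.71, and the other members lie within or next to the cloud.

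The Scd genes, Fads1, Fads2 and Elovl3 lie on chromosome 19. In the gene order of RefSeq (GRCm38.p6), Scd3, Scd2 and Scd1 follow each other with Scd4, not measured here, between Scd2 and Scd1. Fads2 and Fads1 are neighbours too. The 10 measured genes nearest to the Scd group, 5 on each side, differed by -0.19 to 0.15 and none was called. Around Fads2 and Fads1 the 10 nearest differed by -0.14 to 0.07, among them Fads3, picked as a relative, at -0.09 ± 0.10. Around Elovl3 they differed by -0.26 to 0.09, and the lowest were Psd at -0.26 ± 0.08 and the adjacent Pitx3 at -0.24 ± 0.08, named after their values were seen. These differences are those of the brightest probe set of each gene. On that measure neither Scd2, Scd1 nor any of the 10 genes nearest to the Scd group had a difference below -0.19. The dimmer Scd1 probe set, not used in this comparison, differed by -0.24.

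**Figure D5:**
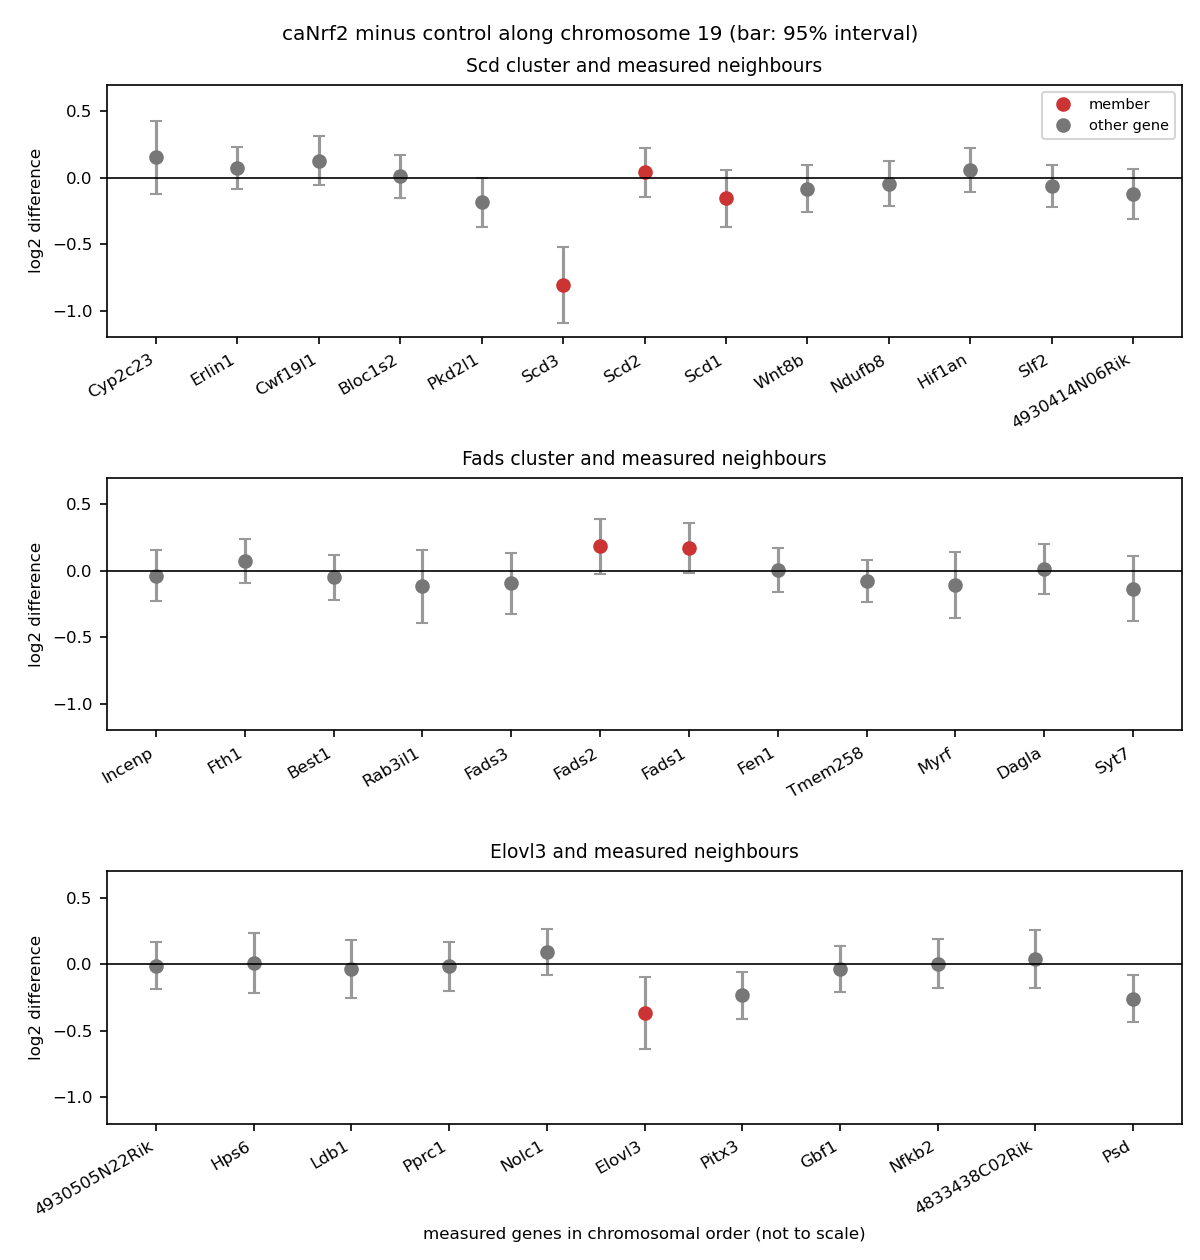
Log2 difference, caNrf2 minus control, with 95% intervals for the brightest probe set of each measured gene, in chromosomal order and not to scale, around the Scd genes, around Fads2 and Fads1 and around Elovl3. Members are red. Scd3 lies at -0.81 between neighbours that lie between -0.19 and 0.15.

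Genes with the most similar course over the 6 arrays were found by the root mean square distance between mean-centred log2 values, among 20132 named probe sets at or above the median level. For Scd3 these were Tmem45b, a membrane protein (distance 0.08 log2 units), Wfdc18, a small protein with a WAP domain (0.19), Rasd1, a small GTPase induced by glucocorticoids (0.19), and Pck1 (0.20), with differences of -0.76, -0.75, -0.56 and -0.51. The first pair passed the threshold (limma adjusted p = 0.0444 and 0.000814). Pck1 stands here with another probe set than among the adipocyte markers above (limma adjusted p = 0.308). Tmem45b read 9.18, 9.02 and 9.04 in controls and 8.51, 8.45 and 7.98 in caNrf2 skin, so it too was lowest on array 3. For Elovl3 they were Cyp1a1, a monooxygenase (0.06), Ap4b1, an adaptor subunit (0.06), the ceramide synthase Cers4 (0.07) and 1810073O08Rik (0.08). Cers4 read 8.51, 8.46 and 8.43 in controls and 8.36, 8.27 and 7.96 in caNrf2 skin, a difference of -0.27. For Mc5r, whose values hardly moved, they were Tmem135, Kars, Bbx and Fam102a, all within 0.014 log2 units. The measure finds genes that follow the same 6 arrays, which share the contrast, and says nothing more.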

How the data were processed

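Per the labels' protocols, back skin was snap frozen and cRNA was made from 2 µg of total RNA with a one-cycle kit. The authors deposited linear intensity values, 1 for each probe set of an array. RMA is named in the submitters' processing notes, with a version not given in the sources used here. This method equalises array distributions and compresses differences near background. The deposited intensities were converted to log2. After 64 array controls were left out, 45037 probe sets were compared between 3 caNrf2 and 3 control arrays by a linear model with moderated variances (limma 3.58.1, R 4.3.3; no covariate, Benjamini-Hochberg over all probe sets, threshold 0.05). Differences are caNrf2 minus control, with SE and 95% intervals from this fit. Median differences and counts of a gene list are over all its probe sets. Summed intensities and medians per array use the brightest probe set of each gene. The fit was run on data simulated from its own variance model with equal spread in both groups. Such a run cannot test the intervals where the groups differ in spread. Precision is limited by 3 arrays per group. Replicates are separate animals.

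The members, the 14 other gene lists and the alternatives were chosen with earlier results of these data known. Genes named were all members, per list the probe set with the smallest p and those called, and the 4 genes nearest in course to Scd3, Elovl3 and Mc5r; Nfe2l2 and Nqo1 were named as the transgene check; others are said to be picked. Alternatives are given in the closing section. Promoters came from RefSeq. Columns of other series numbered 0.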

Additional observations from a re-analysis of the deposited data

How the results depend on the processing

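Limits are the 3 arrays per group, dim probe sets such as those of Mogat2, and whole skin as the sample. Alternatives numbered 16: each array left out, centring on medians, renormalisation by quantiles, the low-value filter, the replicate block, 3 other variance settings (trend, robust, array weights), a pseudocount of 16, and the brightest or mean probe set of a gene. Deviations of the control and caNrf2 arrays with the same replicate number correlated at -0.15, -0.04 and 0.04 for numbers 1, 2 and 3. With 3 arrays per group such values cannot show whether the arrays were paired. With the replicate block 91 probe sets were called higher and 6 lower, and 2 member probe sets were called lower, both of Scd3. The count of members called lower, 1 as reported, was also 2 with an intensity trend and with array weights, and 0 with the pseudocount, with the mean of probe sets and without any single array (0 to 0); members called higher stayed at 0. Over all probe sets, 102 higher became 63 with the brightest probe set per gene and 60 with the mean, where fewer features were tested, and 61 to 111 without single arrays (67, 61 and 66 without control 1, 2 and 3). The 6 lower became 14 with the trend, 15 with array weights, 2 with the pseudocount, 3 with the mean, and 1 to 25 without single arrays (2, 3 and 1 without control 1, 2 and 3, 25 and 3 without caNrf2 1 and 2). Where not named, the cause was not tested. The brighter Scd3 probe set stayed between -0.90 and -0.66 in all 16, with adjusted p from 0.00869 to 0.170 (limma), and passed in 8. Signs turned only in small differences: without control 2, Scd2 gave -0.021, -0.062 and -0.054 and Mc5r -0.039 (without control 1, 0.092, 0.124, 0.182 and 0.053); without caNrf2 2, Mc5r gave -0.0081 and the dimmer Fads6 probe set -0.045 (0.062 without caNrf2 1); and Fads1 gave -0.030 as the mean of its probe sets. The Ppard difference was 0.29 as the mean of its probe sets (limma adjusted p = 0.299). Other members, Me1 and the brighter Ppard probe set kept their direction.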

Other observations

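Ucp1, the heat-producing channel of brown fat, stood out on a single array, and it was picked after its values were seen. Its probe set read 4.67, 4.55 and 4.28 in controls and 4.54, 4.74 and 6.99 in caNrf2 skin (log2 intensity). Only caNrf2 array 3 was high, and the difference of 0.92 ± 0.49 (SE) missed the threshold (limma adjusted p = 0.619). Elovl3, a gene that brown fat also uses, had its lowest value, 9.08, on that array. The 9 measured brown fat genes were followed by the brightest probe set of each. Their median deviation from the control mean was 0.06, -0.05 and -0.05 on control arrays 1 to 3. On caNrf2 arrays 1 to 3 it was -0.01, 0.03 and 0.05. Over all 19 brown fat probe sets the median difference was -0.06. Of these, 12 were below 0, against 23257 of 45037 over all probe sets. The summed intensity of the 9 genes, Ucp1 included, was 2684 on caNrf2 array 3 and 2702 on array 2. Both were above the 2505 to 2625 of controls, and array 1 gave 2263. Ucp1 was picked for its value on array 3 and is part of this sum, so the sum on array 3 is not separate from it. A sum without Ucp1 was not computed. Whether brown fat content differed between arrays was not tested.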
